A study of Oryza sativa with 9 samples.

Results

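Root RNA of rice (Oryza sativa) was measured for 5 phospholipase genes out of the 105692 gene models listed in the files. They were chosen by identifier, as enzymes other than the diacylglycerol kinase the study altered that make phosphatidic acid (phospholipase D) or diacylglycerol (phospholipase C). All 5 were among the 22383 models that had enough signal to be tested, of which 13945 were annotated models with an OS identifier. Roots came from 7-day-old plants of the cultivar Dongjin, grown in soil at room temperature under days of 10 h light and nights of 14 h. The 9 libraries form 3 groups of 3. They are wild type (WT), a line (dgk1) whose label gives knockout of the gene for diacylglycerol kinase 1, and a line whose label gives overexpression of the same gene (OE2), so each altered genotype is a single line. How the knockout was made, the transgene's promoter and the plants per library were not stated in the labels. The series title names root architecture and lipid mediators as its subject.

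Phosphatidic acid and diacylglycerol are lipids that plant cells use both to build membranes and to signal. Phospholipase D cuts the head group off a membrane phospholipid and leaves phosphatidic acid. Phospholipase C cuts on the other side of the phosphate and leaves diacylglycerol, which diacylglycerol kinases phosphorylate to phosphatidic acid. The phosphoinositide type of phospholipase C works on phosphorylated phosphatidylinositol, while the non-specific type works on common phospholipids such as phosphatidylcholine. In plants phosphatidic acid is known from responses to abscisic acid, drought and salt, and from the growth of roots and root hairs.

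Levels are given as FPKM (fragments scaled by model length and by library depth), so those of different genes can be set side by side per length. The libraries held 8908397 to 12459460 fragments. Along the third principal component WT replicate 1 (53.8) and OE2 replicate 2 (32.8) stood apart from the other 7 libraries, which lay between -32.8 and -1.72. At the targeted kinase locus, OS04G0634700 was listed at 0 in every library, and the numbered model 25546, with identical start and end, had 0.896, 0.738 and 0.487 FPKM in WT. Under the dgk1 label it had 7.24, 5.60 and 9.16 FPKM, and under the OE2 label 0.521, 0.625 and 0.571. These values go against both labels, and the groups are named here only as the libraries are labelled. Of 5 root markers, the silicon exporter LSI2 (197 to 298 FPKM), the root protein RCc3 (832 to 2109) and the iron transporter IRT1 (5.23 to 10.6) were present, the silicon channel LSI1 was listed at 0, and a high-affinity nitrate transporter was near 0 (at most 0.219). The summed level of 40 green-tissue models was 230 to 348 FPKM in WT, 165 to 218 in dgk1 and 237 to 339 in OE2. None of the 5 genes was called different between lines, and the part of green tissue in their levels was not tested.

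Phospholipase D alpha 1 (PLD1, OS01G0172400) lies on chromosome 1 from 3724667 to 3728791 on the minus strand. The alpha class is an abundant, calcium-dependent type of plant phospholipase D, and in rice this enzyme is known for breaking down lipids in the bran. PLD1 stood at 175, 199 and 166 FPKM in WT, at 212, 221 and 199 in dgk1 and at 227, 208 and 227 in OE2. On the deposited scaling, all 6 libraries of the altered lines lay above all 3 of WT. The lowest dgk1 library (199.2) exceeded the highest WT library (198.8) by less than 1 FPKM. With scaling to the total fragments of each library, OE2 replicate 2 instead lay below WT replicate 2. In bulk roots, more cells of a type and more RNA per cell cannot be told apart. Over all tested models, 3.34% had every dgk1 and OE2 library above every WT library.

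The mean of PLD1 was 180 ± 16.9 FPKM in WT, 211 ± 11.0 in dgk1 and 221 ± 11.1 in OE2 (SD, n = 3). Neither difference from WT passed the test, which was limma with Benjamini-Hochberg adjustment over all 22383 models. For the libraries labelled dgk1 the log2 fold change was 0.23 ± 0.10 (SE; 95% interval 0.0098 to 0.45, limma adjusted p = 0.425). For those labelled OE2 it was 0.29 ± 0.10 (0.075 to 0.51, limma adjusted p = 0.124). In linear terms the second interval runs from 1.05-fold to 1.43-fold. Both comparisons share the WT libraries. The lowest adjusted p for PLD1 under any alternative processing, 0.0577, came for OE2 when WT replicate 2 was left out (log2 fold change 0.37). Without WT replicate 1 the OE2 value was 0.28, and without OE2 replicate 2 it was 0.34. Over all 15 alternatives the OE2 value lay between 0.20 and 0.37, with a limma adjusted p of up to 0.290. Between OE2 and dgk1 the difference was 0.06 ± 0.10 (-0.15 to 0.28, limma adjusted p = 0.775).

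On chromosome 6, 3 phospholipase D genes stand within 23.5 kb. OS06G0604200, described only as a phospholipase D, runs from 23908918 to 23913796 on the minus strand. Phospholipase D alpha 2 (PLD2, OS06G0604400) runs from 23928713 to 23932370 on the plus strand, 14.9 kb further on. Between them OS06G0604300 (23921940 to 23924919, plus strand) and the numbered model 31688 overlapping it were both listed at 0 in all 9 libraries. The neighbours therefore differed in level: per length, OS06G0604200 was 2.43 to 5.14 times as high as PLD2 within a library.

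OS06G0604200 stood at 119, 76.8 and 55.1 FPKM in WT, at 88.9, 78.2 and 71.4 in dgk1 and at 96.5, 55.9 and 107 in OE2. The 3 groups overlapped, and both the highest and the lowest of the 9 libraries were WT. Its means were 83.8 ± 32.8, 79.5 ± 8.78 and 86.4 ± 26.8 FPKM. The spread leaves wide limits: the log2 fold change was -0.0093 ± 0.31 for dgk1 against WT (-0.72 to 0.70, limma adjusted p = 1) and 0.06 ± 0.31 for OE2 against WT (-0.65 to 0.77, limma adjusted p = 0.941). These limits still allow a 1.71-fold rise or a fall to 0.637 of the WT level in OE2.

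PLD2 stood at 26.7, 22.8 and 20.9 FPKM in WT, at 24.0, 21.7 and 23.2 in dgk1 and at 22.0, 23.0 and 20.8 in OE2. The groups overlapped throughout, and WT replicate 1 was the highest of the 9. The log2 fold change was -0.03 ± 0.11 for dgk1 (-0.28 to 0.23, limma adjusted p = 0.970) and -0.09 ± 0.11 for OE2 (-0.35 to 0.17, limma adjusted p = 0.712). For OE2 the interval runs from 0.786 to 1.12 of the WT level. Around this pair of genes, 6 of 30 tested neighbours within 250 kb were called in OE2 against WT, and on chromosome 6 as a whole the share called was 13.0%, beside 6.96% over the genome.

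The 3 genes made up nearly all signal of the models described as phospholipase D or with its motif. Of 14 models described as phospholipase D or with its motif, 8 were listed at 0 in every library, and the other 3 outside the named genes never reached enough signal to be tested, at up to 1.24 FPKM (OS07G0260400). PLD1 made up 54.3 to 72.1% of the summed FPKM of the 14 models, OS06G0604200 19.4 to 37.0% and PLD2 5.83 to 8.59%, with 0.319 to 0.715% left to the rest. The sum was 323, 299 and 243 FPKM in WT, 326, 322 and 296 in dgk1 and 346, 288 and 356 in OE2, and these ranges overlap. PLD2 held its smallest mean share in OE2 (6.72 ± 1.12%, against 8.16 ± 0.504% in WT and 7.30 ± 0.557% in dgk1), a difference that was not tested. The models listed at 0 include phospholipase D delta (OS09G0543100). Whether a model described otherwise holds signal on its span was not examined, so the shares are of the 14 models only.

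**Figure D1:**
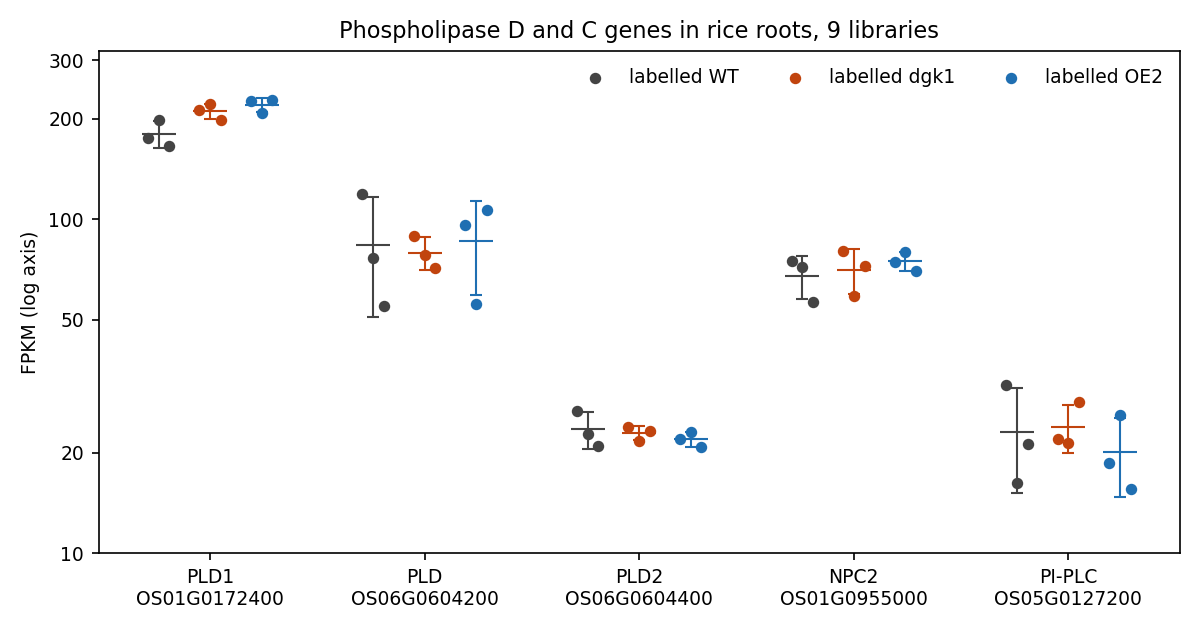
Level of the 5 phospholipase genes in each of the 9 root libraries, in FPKM on a log axis, with 1 point per library and the mean ± SD of each group of 3. PLD1 is highest in every library, at 166 to 227 FPKM, and its 3 WT points lie below the 6 points of the altered lines.

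Among the routes to diacylglycerol, non-specific phospholipase C2 (NPC2, OS01G0955000) lies on chromosome 1 from 42063261 to 42067784 on the minus strand. Its name was carried over in the files from Arabidopsis thaliana, where enzymes of this family take part in membrane lipid turnover. NPC2 stood at 75.0, 72.1 and 56.4 FPKM in WT, at 80.5, 58.9 and 72.4 in dgk1 and at 74.8, 80.0 and 69.9 in OE2. The groups overlapped, with the lowest values in WT replicate 3 and dgk1 replicate 2. The log2 fold change was 0.06 ± 0.15 for dgk1 (-0.28 to 0.40, limma adjusted p = 0.941) and 0.15 ± 0.15 for OE2 (-0.19 to 0.49, limma adjusted p = 0.623). The list held 1 other non-specific phospholipase C, as the last entry (OS08G0557200) is a calcineurin-like phosphoesterase matched only by letters. NPC6 (OS01G0102000, named after its values were seen), lay far lower, at 2.53 ± 0.320 FPKM in WT, 3.02 ± 0.119 in dgk1 and 3.11 ± 0.0802 in OE2, and was not called either (limma adjusted p = 0.629 and 0.340 against WT).

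The phosphoinositide phospholipase C (PI-PLC) OS05G0127200 lies on chromosome 5 from 1535764 to 1541563 on the plus strand. Enzymes of this kind release diacylglycerol and a soluble inositol phosphate from the plasma membrane. It stood at 32.0, 16.3 and 21.2 FPKM in WT, at 22.0, 21.4 and 28.4 in dgk1 and at 18.7, 25.9 and 15.6 in OE2. The groups overlapped, and WT spanned nearly the whole range of the 9 libraries. The log2 fold change was 0.09 ± 0.26 for dgk1 (-0.51 to 0.69, limma adjusted p = 0.953) and -0.18 ± 0.26 for OE2 (-0.78 to 0.42, limma adjusted p = 0.759), and the latter turned to 0.07 without WT replicate 1. A numbered model on the same strand, model 26398, lies inside the span of this gene at 4.44 to 12.9 FPKM, and OS05G0127266 on the other strand at 0.308 to 2.39, so fragments of these models cannot be told apart with certainty.

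The files hold 6 models described as phosphoinositide phospholipase C, of which 2 were tested. The other, model 12127 on chromosome 12 (23048705 to 23053244, plus strand), carries C2 and catalytic Y domains and shares its span with OS12G0562400, which was listed at 0. Named after its values were seen, it stood at 4.78, 5.28 and 2.94 FPKM in WT, at 8.71, 6.85 and 7.56 in dgk1 and at 4.27, 4.62 and 5.23 in OE2. Its 3 dgk1 libraries lay above the other 6, but the difference from WT did not pass the test (log2 fold change 0.73 ± 0.19, limma adjusted p = 0.192), nor did that between OE2 and dgk1 (-0.61 ± 0.19, limma adjusted p = 0.121). The latter was called under 2 of 15 alternatives, with scaling to total fragments and without WT replicate 3. In 8.39% of all tested models the dgk1 libraries lay above those of WT without overlap, wherever those of OE2 lay. The share above both groups was not counted.

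Over the 3 comparisons, 0 of the 5 genes were called by limma, where the calls over all tested models were 0.675% (dgk1 against WT), 6.96% (OE2 against WT) and 6.36% (OE2 against dgk1). At an unadjusted p under 0.05, limma gave 1 of 5 (PLD1) for dgk1 against WT, where 11.1% of all models were, and again PLD1 alone for OE2 against WT, where 20.6% were. For OE2 against dgk1 it gave 0 of 5, where 18.7% were. A missed threshold does not show equal levels. The intervals of PLD1 and PLD2 keep each difference from WT within 1.43-fold, while those of OS06G0604200 run from 0.607 to 1.71 and those of PI-PLC from 0.584 to 1.61 of the WT level. None of the 5 was called under any of the 225 combinations of gene, comparison and alternative that were run.

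**Figure D2:**
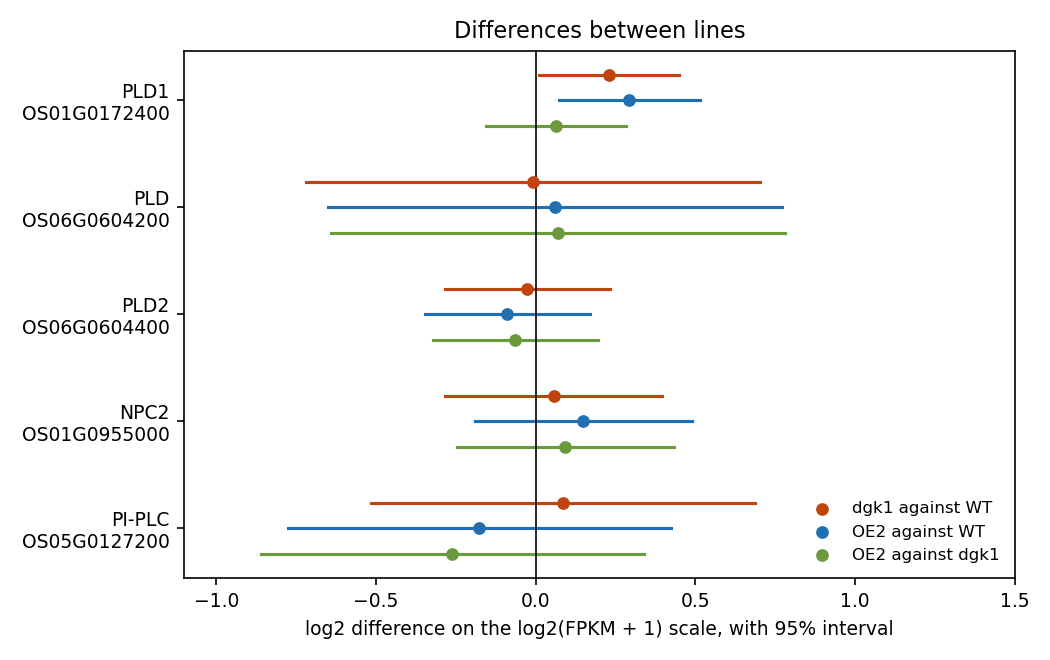
Difference between lines for each of the 5 genes, as log2 fold change on the log2(FPKM + 1) scale with its 95% interval from limma, not adjusted for the number of genes. The 2 intervals of PLD1 against WT lie above 0, all 13 others span 0, and none of the 15 differences passed the adjusted threshold.

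By level the 5 genes fell into 3 tiers that held in every library. PLD1, at a mean of 204 FPKM over the 9 libraries, exceeded 94.8% of the annotated tested models. OS06G0604200 (83.2 FPKM) and NPC2 (71.1) came next and overlapped in all 3 groups, OS06G0604200 being the higher in 6 of 9 libraries. PLD2 (22.8 FPKM) and PI-PLC (22.4) came last and also overlapped in all 3 groups, with PLD2 the higher in 5 of 9. Between tiers no values of a group overlapped. PLD1 was 1.47 to 3.71 times as high as OS06G0604200 within a library, and NPC2 was 2.35 to 4.49 times as high as PI-PLC.

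Replicate spread differed between the 5 genes. The SD within lines was taken on the log2(FPKM + 1) scale. It was 0.10 for PLD1, 0.12 for PLD2, 0.19 for NPC2, 0.36 for PI-PLC and 0.44 for OS06G0604200. The median was 0.24 over tested models and 0.19 over those with a mean of at least 10 FPKM, as all 5 genes had. PLD1 had a higher SD than only 5.75% of tested models, and OS06G0604200 more variable than 80.7% of them. The fewest fragments in a library were 4603 for PLD1, 1456 for OS06G0604200, 621 for PLD2, 1780 for NPC2 and 355 for PI-PLC, which give counting SDs of 1.47%, 2.62%, 4.01%, 2.37% and 5.31% of the value. The coefficient of variation in WT, dgk1 and OE2 was 39.1%, 11.0% and 31.1% for OS06G0604200 and 34.7%, 16.2% and 26.4% for PI-PLC, above counting error in each line. For PLD2 it was 12.7%, 5.02% and 5.18%, so in dgk1 and OE2 the spread of this gene was close to counting error. It was 9.39%, 5.22% and 5.04% for PLD1 and 14.7%, 15.5% and 6.74% for NPC2. Between its lowest and highest library OS06G0604200 moved 2.17-fold and PI-PLC 2.05-fold, against 1.37-fold for PLD1 and 1.29-fold for PLD2.

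**Figure D3:**
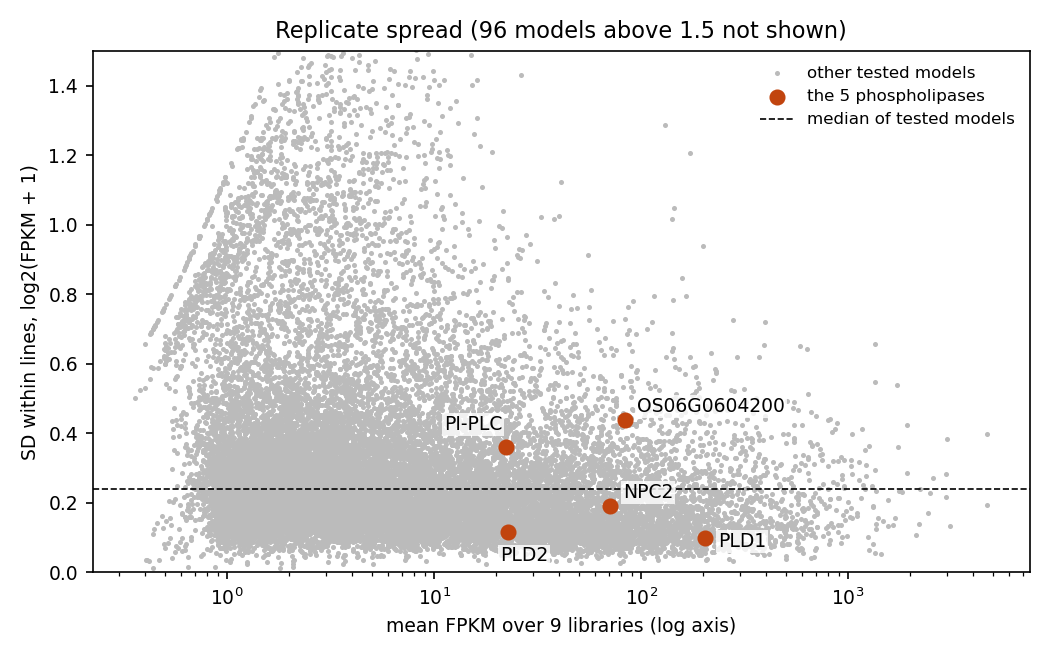
SD within lines of log2(FPKM + 1) against mean FPKM (log axis) for all tested models, with the 5 phospholipases marked and the median of tested models as a dashed line. OS06G0604200 (0.44) and PI-PLC (0.36) lie above the median of 0.24, and PLD1 (0.10) lies near the lower edge; 96 models above 1.5 are not shown.

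The models most like each gene over the 9 libraries were sought by Pearson correlation of log2(FPKM + 1) among 4176 candidates with a described function and a mean of at least 5 FPKM. These correlations are descriptions over libraries that share line and depth. Candidates with r above 0.9 numbered 35 for PI-PLC, 13 for PLD1, 10 for PLD2, 6 for NPC2 and 0 for OS06G0604200. PI-PLC was closest to endoglucanase 24 (OS09G0533900, r = 0.98), of a family that cuts cell wall glucans, to Casparian strip membrane protein 3 (OS06G0231050, r = 0.98), of a family that scaffolds the barrier of the endodermis, and to a translation initiation factor subunit (OS05G0227700, r = 0.97). The Casparian strip gene stood at 17.9, 5.51 and 7.29 FPKM in WT, at 8.39, 7.63 and 12.9 in dgk1 and at 6.98, 10.1 and 4.43 in OE2. Within each line its highest library was that of PI-PLC: WT replicate 1, dgk1 replicate 3 and OE2 replicate 2. The root marker RCc3 was highest in the same 3 libraries, at 2109, 1593 and 1909 FPKM, against 832 to 1385 in the other 6. The part of cell makeup in these levels was not tested, and RCc3 was set beside them after its values were seen. The other expressed root markers did not share this order. LSI2 was lowest of its line in WT replicate 1 (237 FPKM) and OE2 replicate 2 (197), but highest in dgk1 replicate 3 (215). IRT1 was lowest of its line in WT replicate 1 (5.23) and dgk1 replicate 3 (7.40), but highest in OE2 replicate 2 (10.6). Over the 9 libraries the Pearson correlation of log2(FPKM + 1) with PI-PLC was 0.73 for RCc3, -0.36 for LSI2 and -0.29 for IRT1. The likeness to RCc3 was not particular to PI-PLC. Its correlation with RCc3 was matched by PLD2 (0.79) and NPC2 (0.76), but not by OS06G0604200 (0.19) or PLD1 (-0.15).

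**Figure D4:**
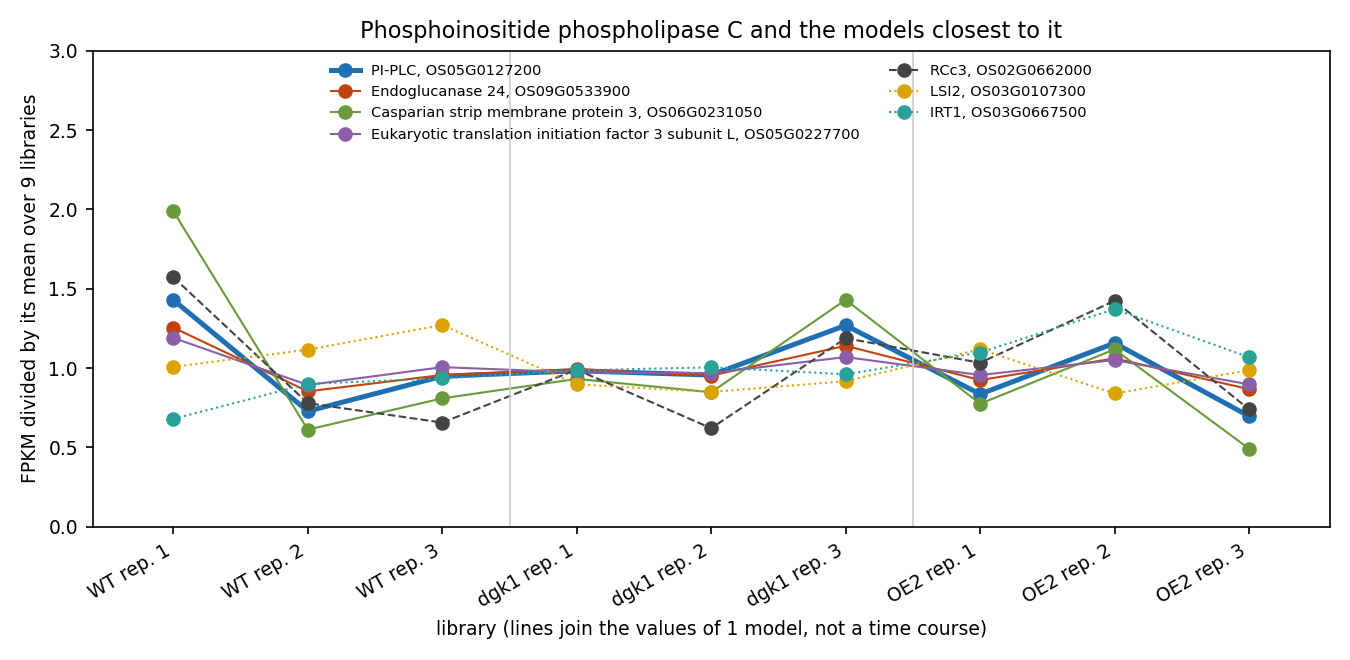
FPKM of PI-PLC, of the 3 models closest to it and of the root markers RCc3, LSI2 and IRT1 in each library, each divided by its own mean over the 9 libraries. PI-PLC, the 3 models and RCc3 are highest within their line in WT replicate 1, dgk1 replicate 3 and OE2 replicate 2. LSI2 and IRT1 are lowest of their line in WT replicate 1. LSI2 is highest of its line in dgk1 replicate 3, and IRT1 in OE2 replicate 2.

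The other genes had other models closest to them. PLD2 was closest to a long-chain-alcohol oxidase (OS02G0621800, r = 0.97), tubulin beta-3 (OS06G0671900, r = 0.94), a subunit of microtubules, and the cytokinin response regulator ORR6 (OS04G0673300, r = 0.93). NPC2 was closest to a monodehydroascorbate reductase (OS08G0557600, r = 0.94), which regenerates ascorbate, a mitochondrial gamma-aminobutyrate transaminase (OS08G0205900, r = 0.94) and the membrane protein LTI6A (OS07G0635900, r = 0.93). OS06G0604200 had weaker matches, led by the DELLA protein SLR1 (OS03G0707600, r = 0.89), the repressor of gibberellin responses, then cytosolic ascorbate peroxidase 1 (OS03G0285700, r = 0.87) and chitinase 8 (OS10G0542900, r = 0.82). PLD1 was closest to model 28341, with a phytanoyl-CoA dioxygenase domain (r = 0.97), to model 23382, with transposon-type integrase domains (r = 0.94), and to the purple acid phosphatase OS11G0151700 (r = 0.94), which stood at 4.42 to 7.70 FPKM in WT and at 12.7 to 19.7 in the 6 libraries of the altered lines.

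The phospholipases were set beside the rest of the lipid pathway, 12 lists in all with 60 tested models, matched on the files' descriptions. In dgk1 against WT 1 of the 60 rose, the kinase model 25546 given above, beside 0.532% of all tested models. In OE2 against WT 3 rose and 1 fell, beside 3.71% and 3.24% of all tested models, and the median log2 fold change of the 60 was 0.13, against 0.0054 over all tested models. No call fell among the 7 tested phospholipases C and D, 5 phosphoinositide kinases, 9 models of inositol phosphate metabolism or 3 acyltransferases that build phosphatidic acid. There was also none among 8 models matched under phosphatidic acid and diacylglycerol use, 2 choline or ethanolamine kinases or 2 respiratory burst oxidase models. Respiratory burst oxidase B (OS01G0360200) lay just short of the threshold in OE2 against WT (log2 fold change -0.93 ± 0.23, limma adjusted p = 0.0507). In 3 of 15 alternatives its list held 1 call in that comparison, and in 3 of 15 so did the list of inositol phosphate metabolism. Matches were by name, and some of the 8, such as UDP-sulfoquinovose synthase (OS05G0387200), use neither lipid.

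Of 10 tested models matched as phosphatidate phosphatases, which turn phosphatidic acid into diacylglycerol, 1 fell and 1 rose. Model 31282, with a divergent PAP2 domain, stood at 6.61, 6.26 and 6.26 FPKM in WT, at 6.64, 5.75 and 5.28 in dgk1 and at 1.42, 1.51 and 1.60 in OE2. It lies on chromosome 6 from 19736575 to 19740925, and its change in OE2 against WT was -1.56 ± 0.12 on the log2 scale (limma adjusted p = 6.05e-05). Whether this domain type acts on phosphatidic acid cannot be read from its name, and it lies on the chromosome where 13.0% of models were called. The lipin model 9743 stood at 10.4, 11.6 and 10.2 FPKM in WT and at 17.7, 20.8 and 16.5 in OE2 (log2 fold change 0.72, limma adjusted p = 0.00874), on chromosome 11, where 18.2% were called. Another of the 10, model 26463, was matched only through the letters of the RNA polymerase-associated domain RPAP2. Of 9 tested phospholipase A and patatin models, which release fatty acids, the patatin OS03G0640000 rose from 14.9, 16.1 and 16.6 FPKM in WT to 28.1, 39.6 and 24.5 in OE2 (log2 fold change 0.88 ± 0.19, limma adjusted p = 0.0235). It fell short of the threshold in 6 of 15 alternatives, at a limma adjusted p of up to 0.0748. The fourth call, in the diacylglycerol kinase model 11163 (log2 fold change 0.61 ± 0.14, limma adjusted p = 0.0368), was lost in 11 of 15, with one of up to 0.116.

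**Figure D5:**
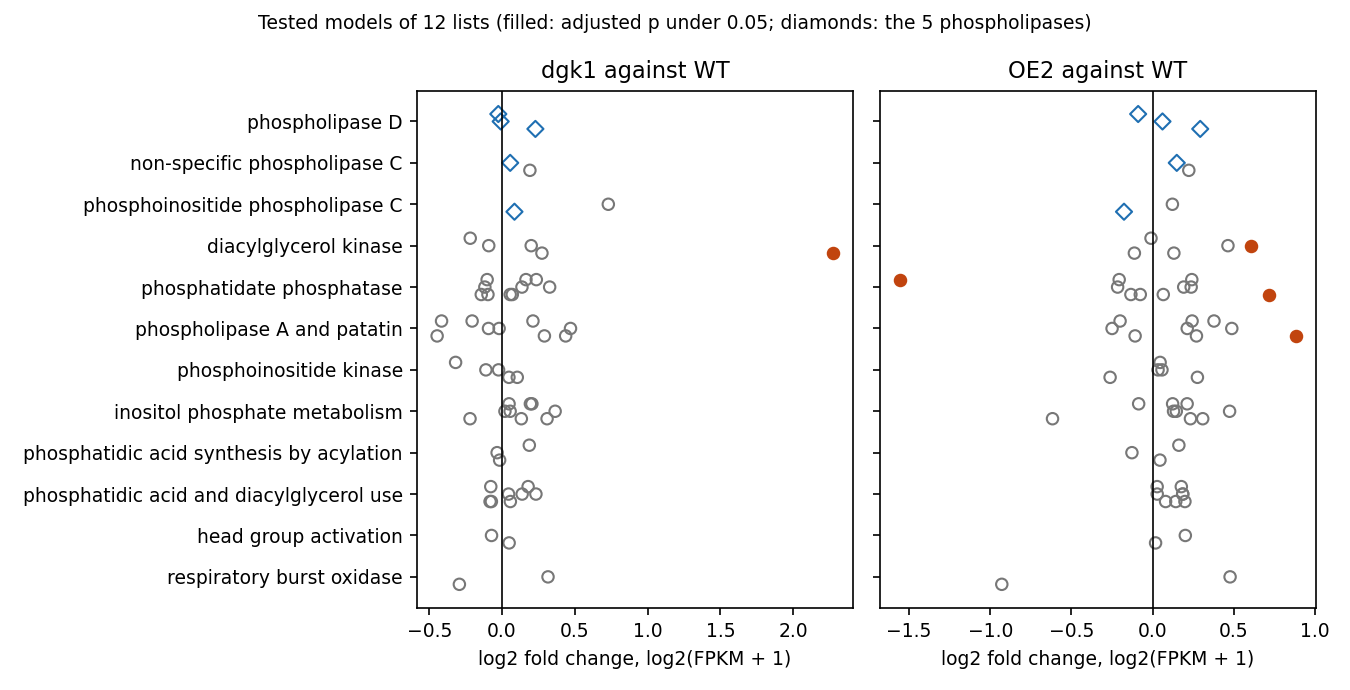
Log2 fold change on the log2(FPKM + 1) scale of the 60 tested lipid pathway models by list, in the dgk1 and OE2 lines each set against WT, with called models filled and the 5 phospholipases as diamonds. The 5 diamonds lie between -0.18 and 0.29, and the filled points are 1 for dgk1 and 4 for OE2.

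The highest models of the other lists spanned a wide range of levels, from above most of the 5 phospholipases to below all of them. They were lipid phosphate phosphatase delta (OS03G0805400, 97.1 to 141 FPKM), inositol-tetrakisphosphate 1-kinase 1 (OS02G0466400, 81.2 to 142), an acyltransferase of phosphatidic acid synthesis (OS11G0637800, 52.3 to 64.9), the patatin-like model 18836 (42.1 to 59.2), a phosphatidylinositol 4-phosphate 5-kinase (OS09G0453900, 35.3 to 49.1), digalactosyldiacylglycerol synthase 1 (OS11G0158400, 34.5 to 47.3), the kinase model 11163 (23.5 to 47.7), the choline or ethanolamine kinase model 766 (7.34 to 10.3) and respiratory burst oxidase B (OS01G0360200, 1.54 to 7.49). PLD1, at 166 to 227 FPKM, was above each of these in range.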

How the data were processed

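RNA of 9 root libraries was sequenced, 3 per line. Per the submitters' processing notes, CASAVA 1.8 and HISAT2 were used. No counting tool, build or annotation is named there, and coordinates are those of the files. The deposited values are in FPKM, a unit inferred from the values and the listed model lengths. Value times length gave whole multiples of 1 step per library for 100% of values up to 2000 fragments, within 0.01, which returned the fragments. The deposited scaling equals a median-of-ratios size factor. The use of strand in counting is not stated. The labels call the replicates biological repetitions without naming separate plants, so p-values measure only the spread between these libraries.

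A model was tested if 3 or more libraries reached 1 FPKM, with limma 3.58.1 (R 4.3.3, statmod 1.5.0; trend and robust variance) on log2(FPKM + 1), which understates changes of low genes. All 9 libraries entered 1 fit with group as the term. Tests were two-sided, and a model was called below 0.05 after Benjamini-Hochberg adjustment. The fit was tested on simulated data. There it missed most of the smallest changes put in and many of the middle size, and found most of the largest. It made false calls at more than the nominal rate. A gene that was not called may therefore still differ by a small or moderate amount.

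The 5 genes and the 12 lists were chosen with earlier results of these data known. Genes named were the 5, any numbered model over them, up to 4 called models and the highest model of each list, the 3 models most like each of the 5, and the kinase locus. Exceptions are stated. Within lines, all 9 pairs of replicates lay further apart than sampling noise (chi-square per degree of freedom 5.53 to 21.3). Alternatives were no filter, a filter of 5 FPKM, a pseudocount of 0.1, scaling to total fragments, a fit to only the 6 libraries compared, a replicate block, and leaving out each library in turn.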

Additional observations from a re-analysis of the deposited data

How the results depend on the processing

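None of the 5 phospholipases passed the limma threshold under any alternative, and the lowest adjusted p was 0.0577. Some differences near 0 changed sign. With scaling to total fragments, OS06G0604200 went to -0.028 for OE2 against WT, to -0.033 between OE2 and dgk1 and to 0.0049 for dgk1 against WT, while the difference between OE2 and dgk1 went to -0.040 for PLD1 and -0.010 for NPC2. This scaling also moved the median of all models, to -0.07 (OE2 less WT) and -0.09 (OE2 less dgk1). Leaving out single libraries, log2 fold changes for dgk1 against WT ranged from -0.27 to 0.28 for OS06G0604200, -0.10 to 0.068 for PLD2, -0.070 to 0.18 for NPC2 and -0.13 to 0.34 for PI-PLC. For OE2 against WT they ranged from -0.20 to 0.35 for OS06G0604200, -0.16 to 0.0052 for PLD2 and -0.39 to 0.075 for PI-PLC. The range between the altered lines was -0.11 to 0.35 for OS06G0604200 and -0.030 to 0.19 for NPC2. PLD1 kept its sign against WT in each of these, and the cause of the changes in sign was not tested. The count of called models was 151 for dgk1 and 1557 for OE2, each against WT, and 1423 between OE2 and dgk1. It fell to 77, 794 and 706 with the filter of 5 FPKM, where 11920 models were tested, and lay between 80 and 142, 1100 and 1638, and 1034 and 1516 without single libraries. For dgk1 it fell by more than 1.5 times without WT replicate 2 (91), WT replicate 3 (89), dgk1 replicate 1 (96), dgk1 replicate 2 (80) or dgk1 replicate 3 (81). Deviations of libraries with the same replicate number correlated between -0.16 and 0.06, and those with different numbers between -0.17 and 0.20. No pairing by number was seen, which does not show how the libraries were handled. With the number as a replicate block the counts were 73, 1156 and 1129, and no phospholipase was called.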
